A study of Mus musculus with 2 samples.

Results

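P2ry12, P2ry13 and Gpr34 are 3 G protein-coupled receptors of the P2Y-like family, and they were read here in retinal immune cells by symbol, as 3 of the 15169 genes listed for both libraries. Single-cell RNA sequencing with a 10x 3′ kit was run on sorted CD45+ retinal cells of B6 mice, all with glaucoma induced by microbeads. The PBS group was 1 library pooled from 10 such mice given PBS, and the Igfbpl1 group was 1 library pooled from 10 such mice given Igfbpl1, an IGF-binding-protein-like protein. Both groups were 8 to 10 months old and carried the glaucoma model, so no library of healthy retina takes part. The levels are given across cell classes, across states of the microglia and between the 2 libraries.

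P2ry12 and P2ry13 are Gi-coupled receptors for ADP, a nucleotide that damaged cells release, and Gpr34 is a Gi-coupled receptor for lysophosphatidylserine, a lipid of stressed and dying cell membranes. P2ry12 draws the processes of microglia, the resident macrophages of retina and brain, towards sites of injury, and P2ry13 takes part in process branching and the surveying state. All 3 are widely used as genes of resting microglia, and P2ry12 in particular is known to be low in microglia that respond to injury or disease.

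In the PBS library 3795008 unique molecular identifiers (UMIs, 1 per captured transcript) came from 1055 cells, and in the Igfbpl1 library 9463631 came from 3330. Each cell took the class whose marker list had the largest share of genes detected, with at least 2 markers. None of the 3 receptors stood in a marker list. The rule called 806 cells (76.4%) microglia-like of the PBS library and 1758 (52.8%) of the other, with median UMIs per cell of 3516 and 2126.5. Of these, 31 cells (3.85%) and 156 cells (8.87%) fell outside the clusters named microglia, mostly in a cluster led by Apoe and MHC class II genes. Most microglia-like cells of the PBS library lay in cluster 0 (601 cells), and those of the Igfbpl1 library in clusters 1, 5 and 0 (692, 468 and 417 cells). Levels are UMIs summed over a class, per 1000000 UMIs of the class (CPM). With 1 library per group nothing was tested, and every exact 95% interval (Poisson for levels, conditional binomial for ratios, Clopper-Pearson for shares) covers counting error only. All comparisons are between these libraries rather than between treatments.

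P2ry12 (ENSMUSG00000036353.13, chr3:59216272-59262871) and P2ry13 (ENSMUSG00000036362.2, chr3:59207892-59210882) are neighbours on the minus strand of chromosome 3 in the mm10 build (GENCODE M21). Both lie inside the span of Med12l (chr3:59005825-59318682), which runs on the plus strand, and whether the counting used strand was not given in the sources used here. Gpr34 (ENSMUSG00000040229.11, chrX:13632089-13640858) is on the plus strand of the X chromosome. The 250 bases upstream are shown for the neighbouring pair because the source used held an entry for these 2 genes and not for Gpr34. These bases come from RefSeq on GRCm38.p6 and are written 5′ to 3′ on the minus strand. Capitals mark AGGAAG, the core bound by ETS factors such as the myeloid regulator PU.1.
P2ry12 upstream, chr3:59262986-59263235: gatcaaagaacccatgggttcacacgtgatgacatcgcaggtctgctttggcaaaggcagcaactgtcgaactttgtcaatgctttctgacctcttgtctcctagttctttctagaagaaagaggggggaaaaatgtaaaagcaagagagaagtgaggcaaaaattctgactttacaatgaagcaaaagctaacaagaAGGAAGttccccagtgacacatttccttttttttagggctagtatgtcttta
P2ry13 upstream, chr3:59210883-59211132: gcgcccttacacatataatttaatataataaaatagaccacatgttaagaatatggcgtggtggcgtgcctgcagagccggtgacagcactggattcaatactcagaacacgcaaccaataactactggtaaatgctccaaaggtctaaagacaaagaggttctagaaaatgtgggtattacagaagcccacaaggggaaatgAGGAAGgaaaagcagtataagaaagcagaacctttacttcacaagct
The match begins 52 bases before the RefSeq start of P2ry12, which lies upstream of the GENCODE end coordinate given above. It begins 47 bases before the RefSeq start of P2ry13, which is also its GENCODE end coordinate. AGGAAG on either strand occurred in 29.5% of all 32851 such windows, so its presence in both is a description. The longer PU.1 letters GAGGAAG, which contain AGGAAG, were found for P2ry13 and not for P2ry12, against 10.6% of windows. The letters searched for AP-1 (TGANTCA) and SMAD (CAGACA), and the IRF and MEF2 motifs, were in neither window, against 6.75%, 17.1%, 2.98% and 3.20% of all windows.

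All 3 receptors were concentrated in the microglia-like cells. There P2ry12 stood at 1415 CPM (1373 to 1459) for PBS and at 661 CPM (637 to 685) for Igfbpl1. P2ry13 was at 293 CPM (274 to 313) and 127 CPM (117 to 138). Gpr34 was at 1329 CPM (1288 to 1371) and 839 CPM (812 to 866). The next immune class of at least 20 cells in the PBS library, the border macrophage-like cells (29 cells), had 200 CPM (132 to 291) of P2ry12, 51.8 CPM (20.8 to 107) of P2ry13 and 303 CPM (218 to 411) of Gpr34. Those levels are 14.1%, 17.7% and 22.8% of the microglial ones. As a reference, 8 genes of microglia kept out of the marker lists stood there between 7.09% (Selplg) and 90.3% (C1qb), with a median of 53.6%. They are not all confined to microglia, as Siglech stood at 269% of its microglial level in plasmacytoid dendritic-like cells of the Igfbpl1 library. Their range is therefore no measure of microglial RNA carried into other classes. The 30 border macrophage-like cells of the Igfbpl1 library had 0 UMIs of P2ry12 (interval up to 34.6 CPM), 1 UMI of P2ry13 and 3 UMIs of Gpr34.

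In the other immune classes the receptors were at low levels. The 329 monocyte-like cells of the Igfbpl1 library had 26.7 CPM (18.4 to 37.5) of P2ry12, 2.43 CPM of P2ry13 from 3 UMIs and 25.9 CPM (17.7 to 36.6) of Gpr34. Among its 104 dendritic-like cells 1 UMI of P2ry12 and 0 UMIs of P2ry13 were found, against 15 UMIs of Gpr34 (28.3 CPM, 15.8 to 46.7). T-like cells had 23.1 CPM of P2ry12 and 49.2 CPM (36.6 to 64.7) of Gpr34 in the Igfbpl1 library, which is 3.50% and 5.86% of the microglial levels. The 8 reference genes stood between 5.07% and 35.4% of their microglial levels in the same T-like cells. In B-like cells P2ry12 stood at 59.8 CPM (4.23% of the microglial level) for PBS and 86.6 CPM (13.1%) for Igfbpl1. The 8 reference genes spanned 3.05% to 9.45% and 5.93% to 30.8% there. The lymphocyte values lie within or below those ranges. In T-like cells of the Igfbpl1 library Selplg alone set the upper end, and the next gene, Ctss, stood at 13.4%. A range set by 1 gene cannot show whether lymphocytes express the receptors, and no expression in lymphocytes is read from these values. The P2ry12 UMIs came from 3 of 81 B-like and 1 of 32 T-like cells in the PBS library, and their source was not tested. The 41 rod-like cells of the PBS library, at 246 CPM of P2ry12, owed all 19 UMIs to 2 cells.

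**Figure D1:**
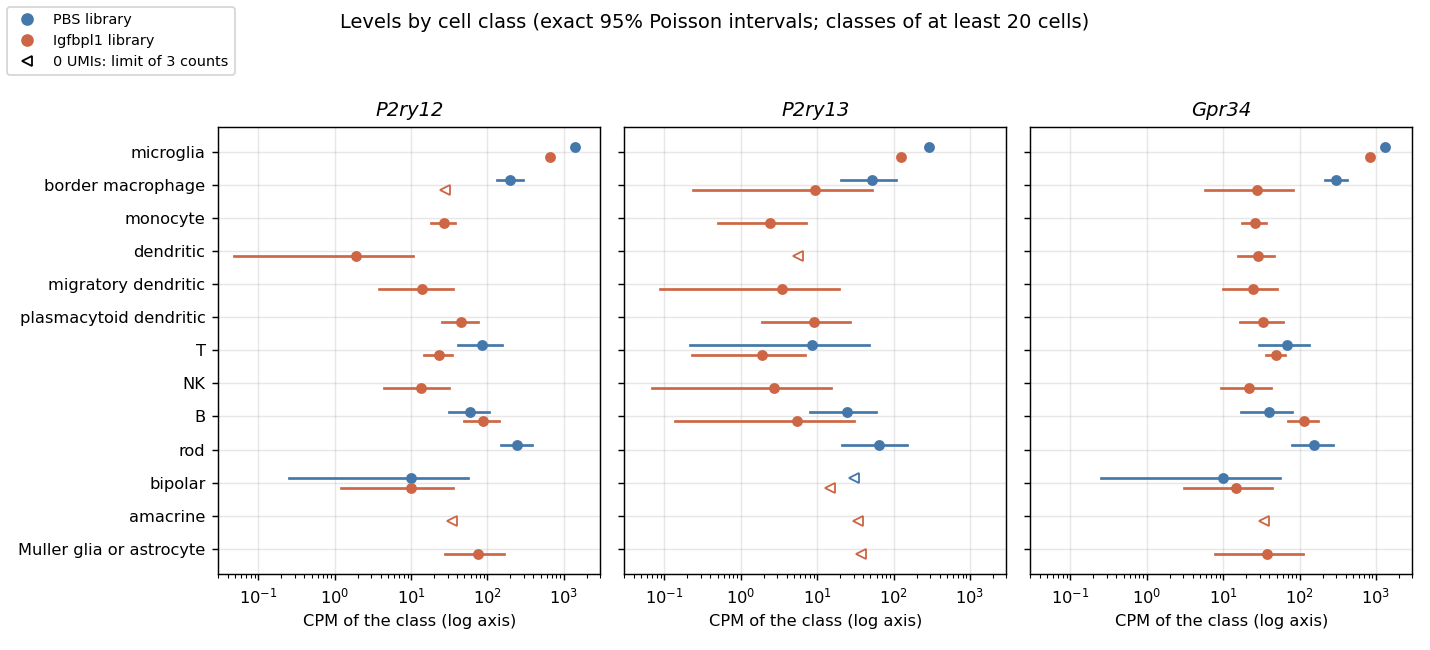
Level of each receptor (CPM, log axis) by cell class, blue for the PBS and orange for the Igfbpl1 library, in classes of at least 20 cells; bars are exact 95% Poisson intervals and open triangles mark 0 UMIs at the limit of 3 counts. Microglia-like cells stand highest for every receptor in both libraries, from 1415 CPM of P2ry12 to 127 CPM of P2ry13.

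Of the relatives of the 3 receptors, several were highest in other cells, while P2ry6 was at 225 and 150 CPM in microglia-like cells. P2ry2 had 6 and 18 UMIs there. Igsf10, listed as a neighbour of the P2ry12 locus and not as a relative, had 5 UMIs in those cells of the Igfbpl1 library. P2ry14, a UDP-glucose receptor next to P2ry13, was highest in plasmacytoid dendritic-like cells (210 CPM) against 4.37 CPM (PBS) and 10.8 CPM (Igfbpl1) in microglia-like cells. Gpr171 was also highest in plasmacytoid and other dendritic-like cells (168 and 143 CPM). Among the other lysophosphatidylserine receptors, P2ry10b was at 21.8 CPM (65 UMIs) and 21.2 CPM (94 UMIs) in microglia-like cells of the PBS and Igfbpl1 libraries, below the 50 CPM taken as measured. P2ry10 and Gpr174 had 0 UMIs in the 806 microglia-like cells of the PBS library and 23 and 7 UMIs in the 1758 of the Igfbpl1 library. P2ry10 reached 164 CPM in migratory dendritic-like cells, and Gpr174 reached 143 CPM in NK-like and 140 CPM in PBS B-like cells. Med12l, a Mediator subunit gene, was at 104 CPM in microglia-like cells of the PBS library and at 214 CPM in the 34 Müller glia or astrocyte-like cells of the Igfbpl1 library. P2ry13 had 0 UMIs in the latter cells and P2ry12 had 6, so Med12l was read there with little P2ry12.

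Between the libraries, all 3 receptors were lower in the Igfbpl1 microglia-like cells, the ADP receptors more so than Gpr34. P2ry12 had 4212 UMIs in the PBS and 2932 in the Igfbpl1 library, a ratio of 0.467 (0.445 to 0.490). P2ry13 had 871 and 564 UMIs, a ratio of 0.434 (0.390 to 0.483). Gpr34 had 3955 and 3721 UMIs, a ratio of 0.631 (0.603 to 0.660). The intervals of the 2 ADP receptors overlap each other and lie below that of Gpr34. Per Gpr34 UMI, P2ry12 went from 1.07 (1.02 to 1.11) in the PBS library to 0.788 (0.751 to 0.827) in the Igfbpl1 library. P2ry13 per P2ry12 UMI was 0.207 (0.192 to 0.222) and 0.192 (0.175 to 0.211), with overlapping intervals.

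With 10 CPM added to both libraries, all 3 were lower by at least 1.5-fold, as were 7.33% of the 3313 genes measured at a mean of 50 CPM. P2ry12 and P2ry13 were among the 15 genes (0.453%) lower by at least 2-fold, with 9 and 4 genes lower still. Gpr34 had 164 genes below it. The log2 ratios were -1.09, -1.14 and -0.66, against a median of -0.14 over all measured genes. With the median ratio set to 1 (its log2 was -0.156 without the added CPM), the ratios were 0.520 for P2ry12, 0.484 for P2ry13 and 0.703 for Gpr34, the last no longer past 1.5-fold. The microglia markers used to set the class were below 1 as well, from Slc2a5 at 0.380 to Olfml3 at 0.917. Of the 8 reference genes, Siglech (0.504), Selplg (0.562) and Csf1r (0.650) were lower by at least 1.5-fold, and the others stood between 0.789 (Lgmn) and 1.02 (Ctss). In cells that were microglia by the marker rule and by their cluster, the ratios were 0.517 (0.493 to 0.543), 0.484 (0.434 to 0.540) and 0.703 (0.672 to 0.736). P2ry12 and P2ry13, but not Gpr34, passed 1.5-fold there, as did 5.03% of genes.

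Cell by cell, the receptors were found in fewer Igfbpl1 microglia-like cells. After every cell was thinned to 1000 UMIs, 72.0% of PBS and 48.4% of Igfbpl1 cells had a UMI of P2ry12. The shares were 24.2% and 11.5% for P2ry13 and 66.9% and 55.4% for Gpr34. Without thinning they were 93.5% and 69.8% for P2ry12, 58.9% and 25.2% for P2ry13, and 91.8% and 76.8% for Gpr34. In B-like cells (median depths of 2240 and 1640 UMIs) the thinned P2ry12 share was 0% (0 to 4.45) in the PBS and 5.63% in the Igfbpl1 library, and the unthinned shares were 3.70% and 9.86%. The share of cells with 3 or more P2ry12 UMIs was 21.3% (18.6 to 24.3) and 6.54% (5.43 to 7.80). Cells with no UMI of any of the 3 receptors made up 10.9% (8.85 to 13.3) of the PBS and 25.9% (23.9 to 28.0) of the Igfbpl1 cells. Cells with all 3 made up 15.8% (13.3 to 18.5) and 4.49% (3.57 to 5.57).

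Cells with a P2ry12 UMI had a Gpr34 UMI more often than cells without one in each library. In the PBS library Gpr34 was detected in 71.2% (67.3 to 74.9) of cells with a P2ry12 UMI and in 55.8% (49.0 to 62.3) of those without. In the Igfbpl1 library these shares were 65.1% (61.7 to 68.3) and 46.4% (43.1 to 49.7). P2ry13 was detected in 27.6% (24.0 to 31.4) of PBS cells with a P2ry12 UMI and in 15.5% (11.03 to 20.9) of those without. In the Igfbpl1 library the same shares, 13.5% (11.3 to 16.0) and 9.58% (7.75 to 11.7), had overlapping intervals.

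Purinergic and lysophosphatidylserine genes other than the 3 receptors were described from lists of 37 genes, of which 8 were measured in microglia-like cells. In 2 of them the level was lower by 1.5-fold or more and in 0 higher, where 7.33% of all genes were lower and 4.62% higher, and their median log2 ratio was -0.46 beside -0.14 for all genes. With the median ratio set to 1, 0 were lower. The 2 were Slc29a3, a lysosomal nucleoside transporter (175 CPM in the PBS and 104 CPM in the Igfbpl1 library, ratio 0.592), and Lpcat3, a lysophospholipid acyltransferase (88.0 and 49.6 CPM, ratio 0.563). P2ry6, the UDP receptor tied to phagocytosis, had a ratio of 0.666 (0.597 to 0.742). Entpd1, the ectoenzyme that degrades ATP and ADP, was at 519 and 350 CPM (ratio 0.674). The ATP-gated channels P2rx7 and P2rx4 had ratios of 0.824 (0.734 to 0.926) and 1.12 (0.953 to 1.31). Abhd12, a lysophosphatidylserine hydrolase, had a ratio of 0.826. No adenosine receptor was measured by the threshold of 50 CPM.

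Downstream of the receptors, 14 of 21 genes of Gi signalling were measured, with 2 lower and 0 higher, beside the same 7.33% and 4.62% of all genes. The 2 were Pik3cg, the PI3-kinase subunit that Gβγ activates (157 and 82.3 CPM, ratio 0.524), and Rasgrp3, a Ras exchange factor (548 and 319 CPM, ratio 0.582). The abundant G protein genes stood closer to 1, with Gnai2 at 0.908 and Gng5 at 1.34. Among 12 genes of receptor shut-off 5 were measured, with 0 lower and 1 higher, beside those same shares of 7.33% and 4.62%. That gene was Rgs1, a Gi-deactivating regulator with 399 CPM for PBS and 867 CPM for Igfbpl1 (ratio 2.17, 2.03 to 2.32), while Rgs10, another regulator, stood at 0.738. Med12l on the opposite strand had a ratio of 0.452 (0.377 to 0.540), close to those of P2ry12 and P2ry13.

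State was then set per cell from UMIs of gene lists without the 3 receptors, after thinning to 1000 UMIs. On the activation axis, the chemokine Ccl2 plus the haem oxygenase Hmox1, cells with 0 UMIs were called quiet and those with 3 or more activated. P2ry12 was lower in activated than in quiet cells of each library, at 1126 against 1497 CPM in the PBS library (ratio 0.752, 0.662 to 0.852) and at 591 against 744 CPM in the Igfbpl1 library (0.794, 0.727 to 0.867). For P2ry13 the ratios were 0.911 (0.697 to 1.17) and 0.871 (0.709 to 1.07), and both intervals include 1. For Gpr34 they were 0.913 (0.809 to 1.03) for PBS and 0.785 (0.727 to 0.848) for Igfbpl1. None of the 3 passed 1.5-fold, as 5.09% of genes did in the PBS and 0.7% in the Igfbpl1 library. A wider list of 8 genes added other chemokine and cytokine genes to Ccl2 and Hmox1. The Igfbpl1 ratios were then 1.00 (0.885 to 1.14) for P2ry12 and 1.01 (0.898 to 1.13) for Gpr34, so with that list no difference was resolved. In cells called microglia by both rules the wide list gave 0.862 (0.756 to 0.986) and 0.832 (0.742 to 0.937). The state is a range and not a type, and 84 and 373 cells lay within 1 UMI of the upper limit.

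The difference between the libraries was present at each activation level. In quiet cells the Igfbpl1 over PBS ratios were 0.497 (0.464 to 0.532) for P2ry12, 0.445 (0.378 to 0.523) for P2ry13 and 0.702 (0.658 to 0.748) for Gpr34, so that P2ry12 and P2ry13 passed 1.5-fold, as did 7.37% of genes. In activated cells they were 0.524 (0.458 to 0.602), 0.426 (0.320 to 0.572) and 0.603 (0.532 to 0.686). Activated cells made up 8.31% of the PBS and 34.8% of the Igfbpl1 microglia-like cells.

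Levels separated more along the interferon axis, 16 genes induced by type I interferon such as Ifit3, Isg15 and Bst2. Cells with 3 or more UMIs (high) were 11.7% of the PBS and 33.3% of the Igfbpl1 microglia-like cells. P2ry12 was at 876 CPM in high against 1583 CPM in low cells (0 UMIs) of the PBS library (ratio 0.553, 0.492 to 0.621), and at 439 against 920 CPM in the Igfbpl1 library (0.478, 0.434 to 0.525). P2ry13 had ratios of 0.547 (0.422 to 0.701) and 0.507 (0.408 to 0.630). Gpr34 had ratios of 0.575 (0.510 to 0.647) and 0.563 (0.517 to 0.612). All 3 were thus lower by at least 1.5-fold in high cells of each library, as were 8.39% of genes in the PBS and 8.68% in the Igfbpl1 library. In the Igfbpl1 library P2ry12 was at 920, 737, 651, 567 and 374 CPM in cells with 0, 1, 2, 3 and 4 interferon UMIs. The interval with 2 UMIs (589 to 717) overlaps those with 1 (685 to 793) and 3 (496 to 646). These middle steps were therefore not resolved singly. Beyond 4 UMIs P2ry12 was at 354 CPM (283 to 438) with 5 and 426 CPM (378 to 477) with 6 or more, so no further step was resolved. In the PBS library the bins of 4 and of 6 or more UMIs, at 560 and 889 CPM, held only 20 and 32 cells.

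Genes of other macrophages moved with the same axis. From low to high cells, Cd74, the MHC class II invariant chain, went from 201 to 2725 CPM in the PBS and from 538 to 3371 CPM in the Igfbpl1 library. The share of cells outside the microglia clusters went from 0.926% to 14.9% and from 2.36% to 17.7%. In cells that were microglia by both rules, the high over low ratios of P2ry12 were 0.634 (0.563 to 0.712) and 0.580 (0.526 to 0.640), and those of Gpr34 0.636 (0.562 to 0.718) and 0.692 (0.634 to 0.754). In cells with 0 UMIs of every monocyte, border macrophage and dendritic marker they were 0.7005 (0.610 to 0.801) and 0.596 (0.533 to 0.666) for P2ry12, 0.685 and 0.628 for P2ry13, and 0.713 and 0.755 for Gpr34. The difference was thus smaller in the stricter sets and its intervals stayed below 1.

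The disease-associated axis, genes such as Spp1, Lpl, Clec7a and Itgax that mark microglia around damage, was read in the same way. P2ry12 was at 727 against 1561 CPM in high and low cells of the PBS library (ratio 0.466, 0.402 to 0.537) and at 422 against 803 CPM in the Igfbpl1 library (0.525, 0.469 to 0.588). P2ry13 had ratios of 0.602 (0.445 to 0.8001) and 0.465 (0.355 to 0.602), and Gpr34 of 0.535 (0.463 to 0.614) and 0.617 (0.559 to 0.679). All 3 passed 1.5-fold in both libraries, against 8.28% and 6.25% of genes. In the Igfbpl1 library the 53 cells with 6 or more list UMIs were lowest, at 193 CPM (134 to 268) of P2ry12, 22.0 CPM of P2ry13 and 276 CPM (205 to 363) of Gpr34. From low to high cells of the PBS library, Mrc1 and Ms4a7, border macrophage markers, went from 5.60 to 165 CPM and from 24.9 to 197 CPM, Apoe from 3554 to 36004 CPM, and cells outside the microglia clusters from 1.81% to 11.3%. In the Igfbpl1 library that share went from 8.07% to 12.9%, Mrc1 from 2.73 to 9.17 CPM and Ms4a7 from 44.3 to 161 CPM. In cells without any UMI of the other macrophage markers, the P2ry12 ratios were 0.626 (0.526 to 0.741) and 0.599 (0.524 to 0.683). P2ry13 in the PBS library there had a ratio of 0.851 (0.599 to 1.18), so its difference was not resolved there. The part of other macrophages in either axis was not tested beyond these sets.

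**Figure D2:**
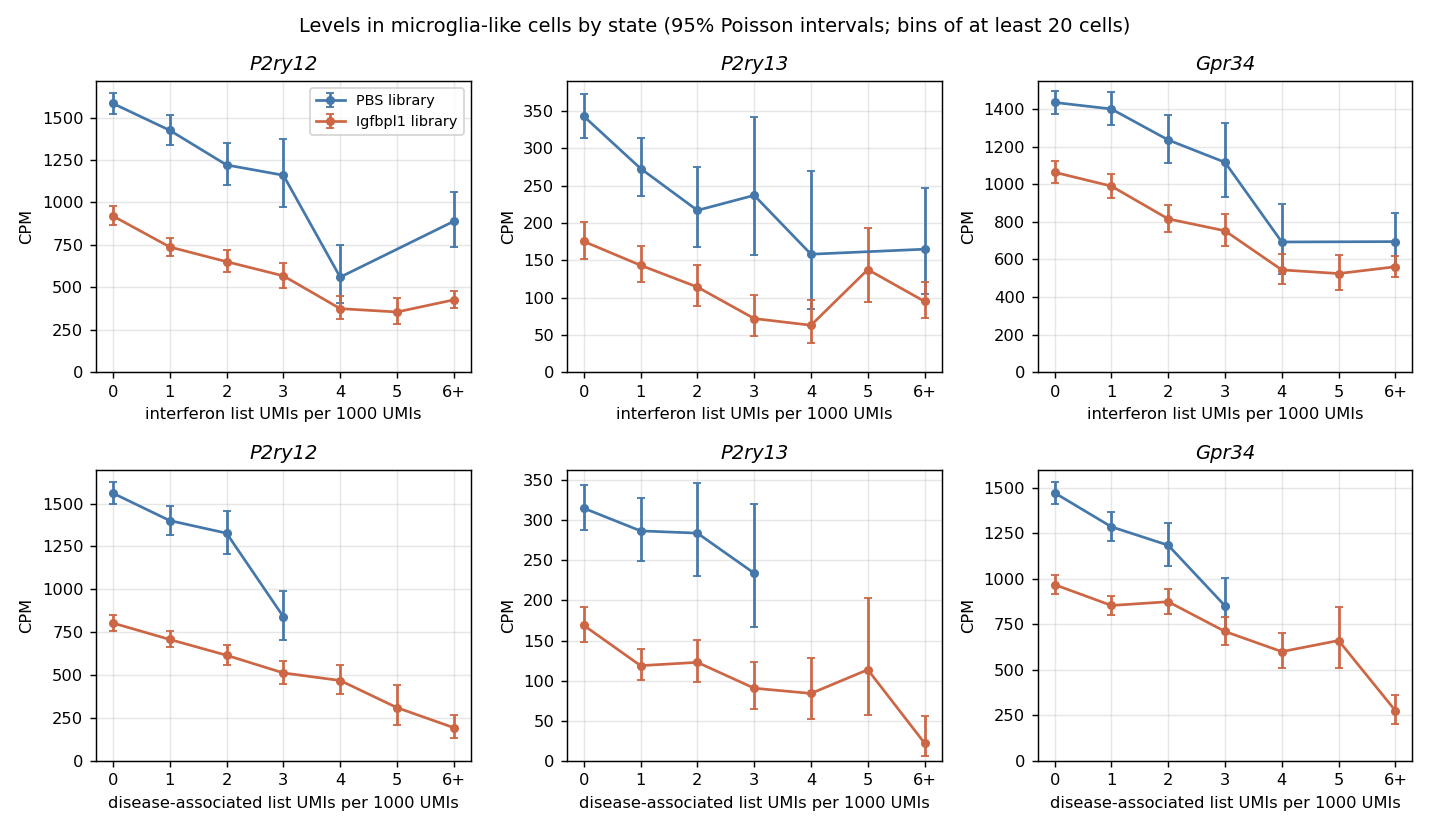
Level of each receptor (CPM) in microglia-like cells by UMIs of the interferon list (top) and the disease-associated list (bottom) per 1000 UMIs of the cell, blue for the PBS and orange for the Igfbpl1 library; bars are exact 95% Poisson intervals and bins hold at least 20 cells. P2ry12 of the PBS library goes from 1583 CPM at 0 interferon UMIs to 889 CPM at 6 or more, and that of the Igfbpl1 library from 920 to 426 CPM.

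On the heat shock axis, 12 chaperone genes such as Hspa1a, high cells (20 or more UMIs) of the PBS library had less of each receptor than low cells (under 10 UMIs), with ratios of 0.729 (0.673 to 0.789) for P2ry12, 0.690 (0.576 to 0.823) for P2ry13 and 0.720 (0.662 to 0.783) for Gpr34. In the Igfbpl1 library the ratios were 0.778 (0.716 to 0.846) for Gpr34 and 0.792 (0.638 to 0.989) for P2ry13, and that of P2ry12, 0.935 (0.849 to 1.03), includes 1. High cells were 23.7% of the PBS and 56.3% of the Igfbpl1 microglia-like cells.

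**Figure D3:**
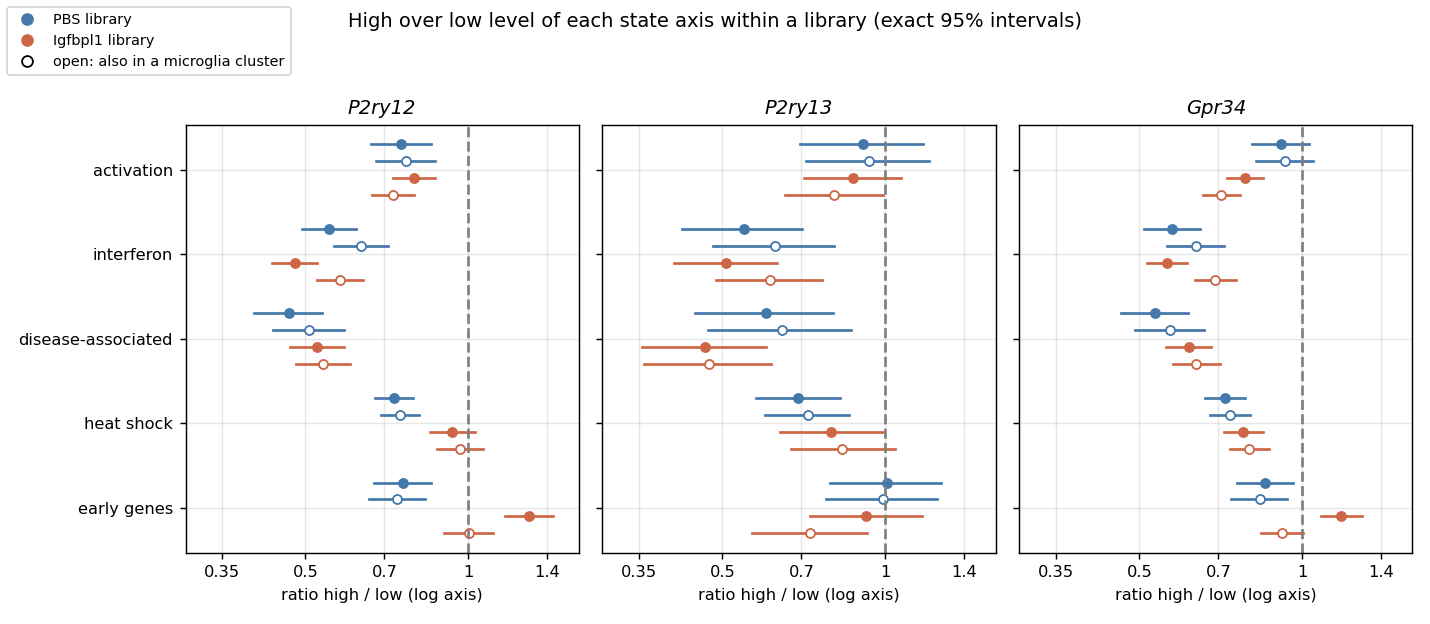
Ratio of the level in high over low cells (log axis) on 5 state axes, for each receptor and library; filled points are all microglia-like cells, open points those also in a microglia cluster, and bars are exact 95% intervals. The interferon and disease-associated axes stand farthest below 1 for all 3 receptors, as in P2ry12 of the PBS library at 0.553 and 0.466.

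The lower levels of the Igfbpl1 library were also seen within combinations of states. Of 9 combinations of activation and interferon level, 8 held at least 20 cells in each library, and all 3 receptors were lower in the Igfbpl1 library in 8 of these 8. The interval lay below 1 in 8 of them for P2ry12, and in 7 for P2ry13 and for Gpr34. The ratios ranged from 0.475 to 0.683 for P2ry12, from 0.451 to 0.653 for P2ry13 and from 0.617 to 0.820 for Gpr34. Weighting the Igfbpl1 cells to the state mix of the PBS library gave 812 CPM of P2ry12 (ratio 0.574), 150 CPM of P2ry13 (0.514) and 1024 CPM of Gpr34 (0.770). In cells low on the activation, interferon, disease-associated and heat shock axes together (93 PBS and 28 Igfbpl1 cells), P2ry12 was at 1757 and 1054 CPM, a ratio of 0.600 (0.455 to 0.779). P2ry13 had a ratio of 0.602 (0.320 to 1.05) there, with an interval that includes 1, and Gpr34 one of 0.706 (0.545 to 0.903). In this small set 16.7% of genes were lower by at least 1.5-fold.

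The size of the difference depended on cell depth and on cluster. In cells of 1000 to 2000 UMIs, where the median depths were 1569 and 1566 UMIs, P2ry12 had an Igfbpl1 over PBS ratio of 0.601 (0.506 to 0.718) and P2ry13 of 0.562 (0.385 to 0.847). Gpr34 in the same cells was at 1309 CPM in the PBS and 1238 CPM in the Igfbpl1 library, a ratio of 0.945 (0.787 to 1.14). In cells of 5000 UMIs or more the ratios were 0.266 (0.228 to 0.310), 0.206 (0.140 to 0.294) and 0.361 (0.313 to 0.416). Of those deep cells, 58.8% in the Igfbpl1 and 7.83% in the PBS library lay outside the microglia clusters, and 23.7% and 0% were called doublets. With all doublets left out, the ratios over all microglia-like cells were 0.483 for P2ry12, 0.452 for P2ry13 and 0.650 for Gpr34. In cells called microglia by both rules, P2ry12 went from 0.599 (0.504 to 0.716) in the shallowest bin to 0.397 (0.327 to 0.479) in the deepest, and Gpr34 from 0.941 (0.783 to 1.14) to 0.592 (0.499 to 0.6995). Within cluster 0, P2ry12 had a ratio of 0.696 (0.647 to 0.749) and P2ry13 of 0.705 (0.596 to 0.829), while Gpr34 was at 1542 and 1570 CPM (1.02, 0.952 to 1.09). Within cluster 1 the 3 ratios were 0.786 (0.690 to 0.897), 0.690 (0.524 to 0.920) and 0.906 (0.798 to 1.03). In cluster 5 they were 0.654 (0.570 to 0.752), 0.395 (0.291 to 0.537) and 0.783 (0.691 to 0.889). The lower Gpr34 level of the Igfbpl1 library was therefore resolved in cluster 5 but not in the shallowest cells or in clusters 0 and 1, whereas the intervals of P2ry12 and P2ry13 were below 1 in each of these sets. The PBS side was small in the shallowest set (61 cells, 124 Gpr34 UMIs) and in cluster 1 (71 cells), and larger in cluster 0 (601 cells).

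**Figure D4:**
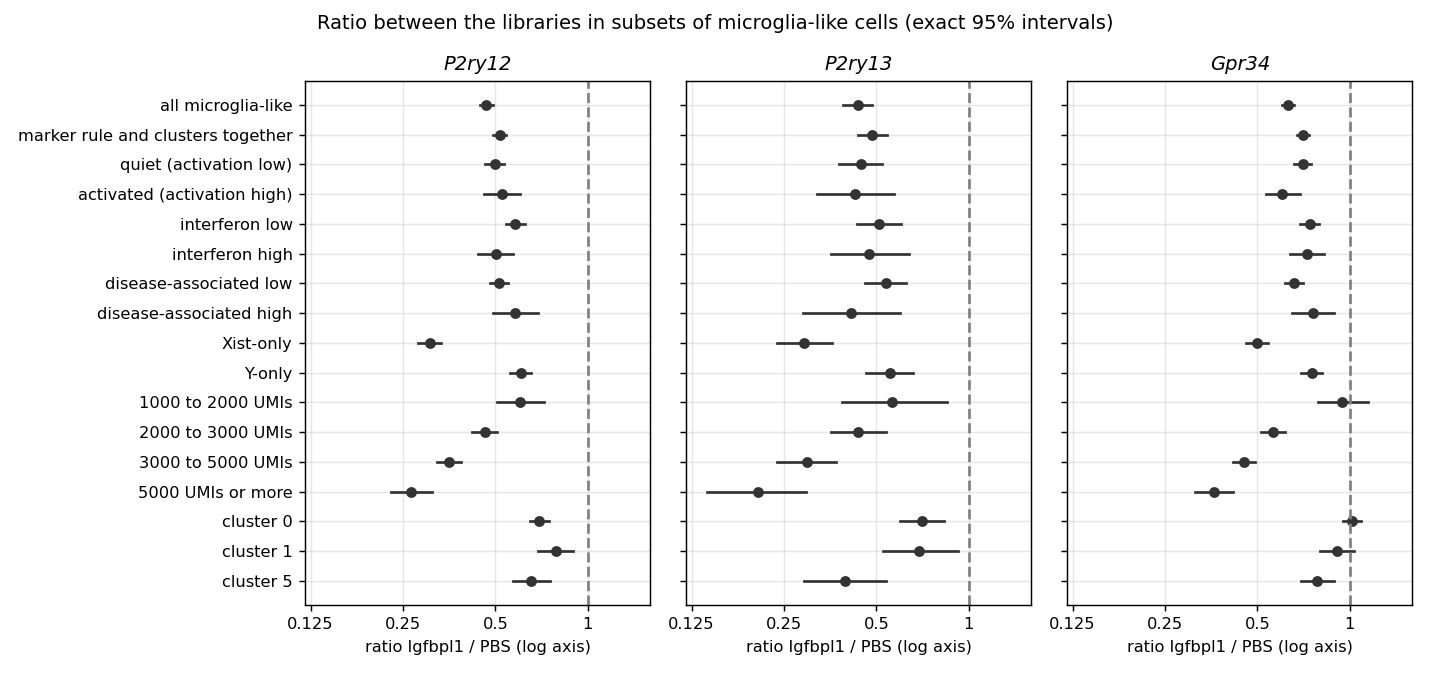
Igfbpl1 over PBS ratio of each receptor (log axis) in subsets of the microglia-like cells, with exact 95% intervals and a dashed line at 1. P2ry12 and P2ry13 lie below 1 in each subset drawn, and Gpr34 reaches 1 in cells of 1000 to 2000 UMIs (0.945), in cluster 0 (1.02) and in cluster 1 (0.906, interval to 1.03).

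Cells with Xist UMIs and cells with Y-linked UMIs occurred in both pools. Those with Xist alone were 33.9% of the microglia-like cells with UMIs of only 1 kind in the PBS and 59.0% in the Igfbpl1 library. Within the Xist-only cells P2ry12 was at 1779 CPM in the PBS and 543 CPM in the Igfbpl1 library (ratio 0.305, 0.280 to 0.332), and within the Y-only cells at 1245 and 752 CPM (0.604, 0.557 to 0.655). P2ry13 had ratios of 0.292 (0.238 to 0.357) and 0.553 (0.463 to 0.659), and Gpr34 of 0.497 (0.459 to 0.539) and 0.751 (0.696 to 0.809). All 3 receptors were thus lower in the Igfbpl1 library in both sets. In the Igfbpl1 library 50.3% of the Xist-only and 18.7% of the Y-only cells were high on the interferon axis, against 8.16% and 12.04% in the PBS library. The number of mice of each sex per pool was not given in the sources used here.

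Genes with the most similar pattern were sought over 17 groups of library, activation and interferon level, which share the 2 libraries and their depths, among 3147 genes. For P2ry12 the highest Pearson r of log2 level were those of Snx29, a sorting nexin (0.976), the transcription factor genes Mef2a (0.975) and Zfhx3 (0.972), Siglech, a lectin of microglia (0.970), and Elmo1, an engulfment gene (0.969). For P2ry13 they were Siglech (0.967), Laptm5 (0.966), Vsir (0.965), P2ry12 itself (0.953) and Chd9 (0.951). For Gpr34 they were Tln2 (0.954), Plxdc2 (0.954), Cst3 (0.953), Rtn3 (0.952) and Klf12 (0.952). Gpr34 had an r of 0.920 with P2ry12 (rank 18) and of 0.831 with P2ry13 (rank 119), while that between the ADP receptors was 0.953. Siglech was at 905 CPM in the PBS and 456 CPM in the Igfbpl1 library, a ratio of 0.504 (0.476 to 0.534) between those of P2ry12 and Gpr34.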

How the data were processed

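The authors deposited unnormalised UMI counts per gene and cell, and the submitters' processing notes name Cell Ranger 3.1 and mm10. Any earlier filter on cells was not given in the sources used here. A filter of 200 genes and 20% mitochondrial UMIs removed 0 cells, and the libraries shared 0 barcodes. Classes came from 16 marker lists, and states from 6 axes of UMIs after thinning to 1000 (seed 2). Clusters were made without the 3 receptors with scanpy 1.11.5 (2000 variable genes, 30 components, 15 neighbours, Leiden resolution 0.8), and doublets, called with Scrublet (6 and 62 cells), were kept. Intervals used scipy 1.17.1. A gene was measured at a mean of 50 CPM and 20 UMIs, and log2 ratios had 10 CPM added. From each list the 2 measured genes of highest level and the 2 of largest ratio were named, with all P2Y, lysophosphatidylserine receptor and locus genes that had UMIs in microglia-like cells (some items are not reported here), and the 5 most similar genes per receptor. The receptors, lists and rules were chosen with earlier results of these data known. The ratio was tested on simulated data. Alternatives covered cell rule, depth, doublets, scaling, state limits, the minimum CPM, the added CPM and sex-linked transcripts. Cells meeting both rules, cells without other macrophage markers and the Xist-only against Y-only contrast were added after the data were seen.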

Additional observations from a re-analysis of the deposited data

Results flagged for a closer look

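Within-library contrasts of P2ry12 and Gpr34 pointed in opposite directions in the 2 libraries along the early gene axis (Fos, Egr1, Atf3 and like genes). The ratio of high over low cells was 0.757 (0.670 to 0.852) in the PBS and 1.29 (1.17 to 1.43) in the Igfbpl1 library for P2ry12, and 0.856 (0.759 to 0.962) and 1.18 (1.08 to 1.29) for Gpr34. In cells called microglia by both rules the Igfbpl1 ratios were 1.00 (0.903 to 1.11) and 0.918 (0.840 to 1.00), so the opposite direction depends on which cells are taken as microglia. Of the low cells in the Igfbpl1 library 15.3% lay outside the microglia clusters, against 2.39% of the high cells.

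Contrasts of P2ry12 and Gpr34 between Xist-only and Y-only cells also pointed in opposite directions in the 2 libraries. P2ry12 was higher in the Xist-only cells of the PBS library (ratio 1.43, 1.33 to 1.54) and lower in those of the Igfbpl1 library (0.722, 0.658 to 0.792). Gpr34 had ratios of 1.26 (1.17 to 1.36) and 0.838 (0.773 to 0.909). With both cell rules the Igfbpl1 ratios were 0.814 (0.740 to 0.895) for P2ry12 and 0.954 (0.879 to 1.04) for Gpr34. Among cells with 0 interferon-list UMIs they were 0.962 (0.811 to 1.14) for P2ry12 and 1.49 (1.28 to 1.72) for Gpr34, and among interferon-high cells 0.680 (0.558 to 0.834) and 0.621 (0.528 to 0.733). With 1 library per group none of these differences between libraries was tested.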

How the results depend on the processing

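No paired analysis was possible because each group has 1 library and no result comes from a test. Over 12 alternatives the Igfbpl1 over PBS ratio stayed below 1, at 0.305 to 0.604 for P2ry12, 0.292 to 0.553 for P2ry13 and 0.497 to 0.751 for Gpr34. Of 100 recomputed values 61 moved within their counting interval, 37 moved beyond it and 2 moved beyond it and past 1. Those 2 were 1.00 (0.885 to 1.14) and 1.01 (0.898 to 1.13), with intervals that include 1. The 100 include counts of list genes, which have no counting interval.

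For all microglia-like cells, P2ry12 moved to 0.516 with clusters in place of the marker rule, 0.506 with cells thinned, 0.394 in cells of 2000 UMIs or more, 0.492 without mitochondrial, ribosomal protein and heat shock genes in the total, 0.520 with the median ratio set to 1, 0.305 in Xist-only cells, 0.604 in Y-only cells and 0.517 with both cell rules. In the same order Gpr34 moved to 0.703, 0.705, 0.517, 0.665, 0.703, 0.497, 0.751 and 0.703. P2ry13 moved to 0.362 in cells of 2000 UMIs or more, 0.484 with the median ratio set to 1, 0.292 in Xist-only cells, 0.553 in Y-only cells and 0.484 with both rules.

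In quiet cells P2ry12 moved to 0.563 with clusters, 0.554 thinned, 0.424 at 2000 UMIs or more, 0.444 with the 8-gene state list and 0.575 with 0 interferon-list UMIs. Gpr34 moved to 0.814, 0.793, 0.574, 0.578 and 0.813 in the same order, and P2ry13 to 0.527 with 0 interferon-list UMIs. For activated over quiet cells of the Igfbpl1 library, P2ry12 moved to 0.723 thinned, 0.955 with 0 interferon-list UMIs and 1.00 with the 8-gene list. Gpr34 moved to 0.711 with clusters and 1.01 with the 8-gene list. Both values with that list have intervals that include 1, so no reversal is read from them. In the PBS library Gpr34 moved to 0.798 with that list. P2ry13 there, 0.911 with an interval that includes 1, went to 1.01 with that list and 1.11 with 0 interferon-list UMIs, both within the interval. The count of lower purinergic and lysophosphatidylserine genes went from 2 to 0 with the median ratio set to 1. The causes were not tested.

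Depth limits P2ry13 most: its levels rest on 871 and 564 UMIs, and contrasts within the smaller states have wide intervals. With 1 library per group, mouse, pool, sorting and treatment cannot be told apart.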
